A study of Mus musculus with 6 samples.

Results

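The imprinted RNA H19, the growth factor Igf2 of the same domain, and the receptors Igf2r and Igf1r were followed in mouse embryonic stem cells with and without Hoxd12. These 4 genes were picked by name from the 55450 genes listed in each file, with the difference between the genotypes already known. Their values in that comparison are therefore given as a description, without p-values. The SE beside a fold change was worked back from the F statistic of the same comparison, so it is no evidence apart from that test. Per the labels, 3 libraries came from Hoxd12-/- cells and 3 from wild-type cells. All were C57BL6 embryonic stem cells of E3.5 embryo stage, grown in mES medium with 2i, kinase inhibitors that hold such cells in the naive state. The labels give neither the way the deletion was made nor whether replicates are separate clones or cultures. The p-values below are thus measured against a spread among libraries that could be technical, and a difference between a pair of clones cannot be told apart from one between genotypes.

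H19 is a spliced, polyadenylated RNA without a known protein product that is transcribed from the maternal chromosome. Igf2 lies next to it and is transcribed from the paternal chromosome. Both use enhancers beyond H19, and a control region between them decides access: the insulator protein CTCF binds its unmethylated maternal copy and DNA methylation keeps CTCF off the paternal copy. Igf2 protein signals through the tyrosine kinase receptors Igf1r and Insr. Igf2r, itself imprinted in the mouse, carries Igf2 and lysosomal enzymes to the lysosome and has no kinase. In cultured embryonic stem cells the imprint at H19 and Igf2 is known to vary between lines. Neither methylation nor the parental origin of transcripts was measured here.

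H19 also carries a microRNA in its first exon, miR-675, which has been reported to act on Igf1r. Its mature forms are shown because they come from the one of the 4 genes that differed most between the genotypes and have a receptor of the same pathway as a reported target. They are printed from RefSeq (GRCm38.p6, minus strand), at chr7:142577112-142577133 for the 5p form and chr7:142577078-142577099 for the 3p form. Capitals mark the seed, bases 2 to 8.
mmu-miR-675-5p: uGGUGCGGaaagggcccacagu
mmu-miR-675-3p: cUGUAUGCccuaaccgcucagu
A match to the 3p seed, GCATACA, was found 2 times in the 7267 nt 3' UTR of the coding transcript Igf1r-201 (GENCODE M21). The sites start at bases 505 and 1264 of that UTR and are printed with the match in capitals.
Igf1r site 1: ctcatcaccccGCATACAcctgcctgacac
Igf1r site 2: gtgaaacatttGCATACAcatcgtctttaa
Of 390 3' UTRs of similar length, 37.7% held this match at least once. The 5p match CCGCACC was found 0 times there, and neither match was found in the 3' UTRs of Igf2-201 or Igf2r-201. Mir675 itself had 0 counts in every library, and a library of long polyadenylated RNA does not measure mature microRNAs.

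Promoters are shown for the ligand Igf2 and for Igf2r as the imprinted receptor. That of Igf1r, whose mean level was also higher in the knockout, is described by its motif counts. RefSeq's promoter table, which spans 250 bases before and 50 after a start, matched 3 of the 4 genes: Igf2, Igf2r and Igf1r. Igf2 has 4 starts in it. The promoter of the start farthest downstream is chr7:142657447-142657746 (GRCm38.p6, minus strand), with GC boxes (GGGCGG) in capitals.
Igf2: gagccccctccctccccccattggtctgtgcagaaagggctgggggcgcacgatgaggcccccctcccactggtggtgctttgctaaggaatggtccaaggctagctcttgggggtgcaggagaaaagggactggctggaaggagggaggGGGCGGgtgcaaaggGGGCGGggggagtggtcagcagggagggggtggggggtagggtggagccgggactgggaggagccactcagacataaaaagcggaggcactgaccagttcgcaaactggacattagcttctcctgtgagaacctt
The Igf2r promoter is chr17:12769657-12769956 (minus strand), with TCACGTGA, an extended E-box, in capitals.
Igf2r: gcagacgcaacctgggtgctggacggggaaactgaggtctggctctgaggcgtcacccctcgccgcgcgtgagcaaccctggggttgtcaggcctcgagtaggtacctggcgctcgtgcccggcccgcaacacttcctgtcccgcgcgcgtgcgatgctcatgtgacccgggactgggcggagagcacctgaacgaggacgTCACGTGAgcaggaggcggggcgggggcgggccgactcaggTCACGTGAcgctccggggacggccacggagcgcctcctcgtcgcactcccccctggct
With both strands searched, GGGCGG was found 2 times in this Igf2 promoter, 3 times in that of Igf2r and 2 times in that of Igf1r. It occurs in 35.7% of 32851 promoters of this length. TCACGTGA, which contains the E-box CACGTG, was found 2 times in the Igf2r promoter and occurs in 0.974% of all promoters. TCGTAAA, a core bound by posterior Hox proteins, was found 0 times in the promoters of the 3 genes and occurs in 0.597% of all. The CG pair was counted 34 times in the Igf2r promoter, 48 times in that of Igf1r and 2 to 24 times in the 4 of Igf2, against a median of 7 over all promoters.

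Library totals lay between 5412577 and 6280934 expected counts, and 3 counts over such a total come to 0.478 to 0.554 CPM (counts scaled to a common library size), a floor that covers counting error only. Gene levels are given in CPM on TMM-scaled totals. Hoxd12 had 0 counts in all 6 libraries, and its transcript thus gave no check of the genotypes. Knockout replicate 2 stood apart from the other knockout libraries, with a chi-square per degree of freedom of 12.1 and 13.6, against 1.99 to 2.52 for the other pairs of a group. The locus CT010467.1 made up 51.6% and 48.2% of those sums. Without this locus the values were 5.84 and 7.07 per degree of freedom, still above the other pairs. The fold changes, lengths and counts of called genes below were also computed without that library. The marker sums and the search for like profiles were not. The stem cell markers summed to 9000 to 9490 CPM in the knockout and 8820 to 9440 CPM in wild type, with 0 of 10 markers absent. Dppa5a, with 5160 ± 243 CPM in wild type and 5270 ± 313 in the knockout, made up most of that sum. Nanog was called lower in the knockout (561 ± 64.4 and 429 ± 19.3 CPM, log2 fold change -0.39, edgeR adjusted p = 0.00167) and Zfp42 higher (0.29, 1.43e-05), and their part in the results below was not tested.

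H19 (ENSMUSG00000000031, chromosome 7, 142575529 to 142578143, minus strand, GRCm38) was abundant in wild-type cells and low in the knockout. The wild-type libraries held 653, 690 and 644 counts, or 114, 112 and 111 CPM. The knockout libraries held 61, 44 and 63 counts, or 9.76, 8.32 and 9.70 CPM. The groups were far apart, and the libraries of each group lay close together. The means were 112 ± 1.68 and 9.26 ± 0.816 CPM (SD, n = 3), a 12.1-fold lower level in the knockout (log2 fold change -3.59, SE 0.09). The coefficient of variation was 8.81% in the knockout and 1.49% in wild type. Both were below what counting alone gives at such counts, 13.4% and 3.89%. Among 12891 genes tested, H19 ranked 6 from the lowest fold change. In wild type H19 stood at rank 1672 to 1760 of all genes by TPM (transcript abundance scaled for length and library), and in the knockout at rank 7227 to 8595.

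Igf2 (ENSMUSG00000048583, chromosome 7, 142650766 to 142666816, minus strand) differed the other way, from a low level. The wild-type libraries held 26, 39 and 26 counts, or 4.54, 6.35 and 4.47 CPM. The knockout libraries held 63, 59 and 60 counts, or 10.1, 11.2 and 9.24 CPM. Every knockout library lay above every wild-type library. The means were 5.12 ± 1.07 CPM in wild type and 10.2 ± 0.962 CPM in the knockout, 1.98-fold higher (log2 fold change 0.97, SE 0.20). The coefficient of variation was 20.8% in wild type and 9.47% in the knockout, where counting alone gives 18.2% and 12.8%. The antisense gene Igf2os overlaps Igf2 on the other strand. It had 3, 8 and 5 counts in the knockout and 0, 1 and 0 in wild type. The kit marked strand, but whether the counting used it is not given in the sources used here, so reads of this pair cannot be told apart. The hormone gene Ins2, next to Igf2, had 0 counts throughout.

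Igf2r (ENSMUSG00000023830, chromosome 17, 12682406 to 12769664, minus strand) differed little. Its level was 37.5, 33.4 and 32.3 CPM in the wild-type libraries and 37.1, 43.7 and 45.1 CPM in the knockout libraries. The groups overlapped, because wild-type replicate 1 lay just above knockout replicate 1. The means were 34.4 ± 2.77 and 42.0 ± 4.25 CPM (SD, n = 3; log2 fold change 0.29, SE 0.09). The antisense RNA Airn, whose transcription silences the paternal Igf2r copy in most tissues, had 1 count in knockout replicate 2, 1 in wild-type replicate 2 and 0 elsewhere. Its level was below what 3 counts allow in every library.

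Igf1r (ENSMUSG00000005533, chromosome 7, 67952827 to 68233668, plus strand) lies on the same chromosome as H19 but far from it. Its level was 14.8, 17.4 and 17 CPM in wild type and 23.4, 18.0 and 18.5 CPM in the knockout. The lowest knockout library and the highest wild-type library were close, and knockout replicate 1 was highest. The means were 16.4 ± 1.39 and 19.9 ± 2.99 CPM (log2 fold change 0.28, SE 0.13). Without knockout replicate 1 the log2 fold change was 0.15. In CPM, 3 of the 4 genes had groups that did not overlap, which held for 39.7% of all tested genes. The test of all genes called 26.5% of them, and nothing is read from these shares for genes chosen on this contrast.

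**Figure D1:**
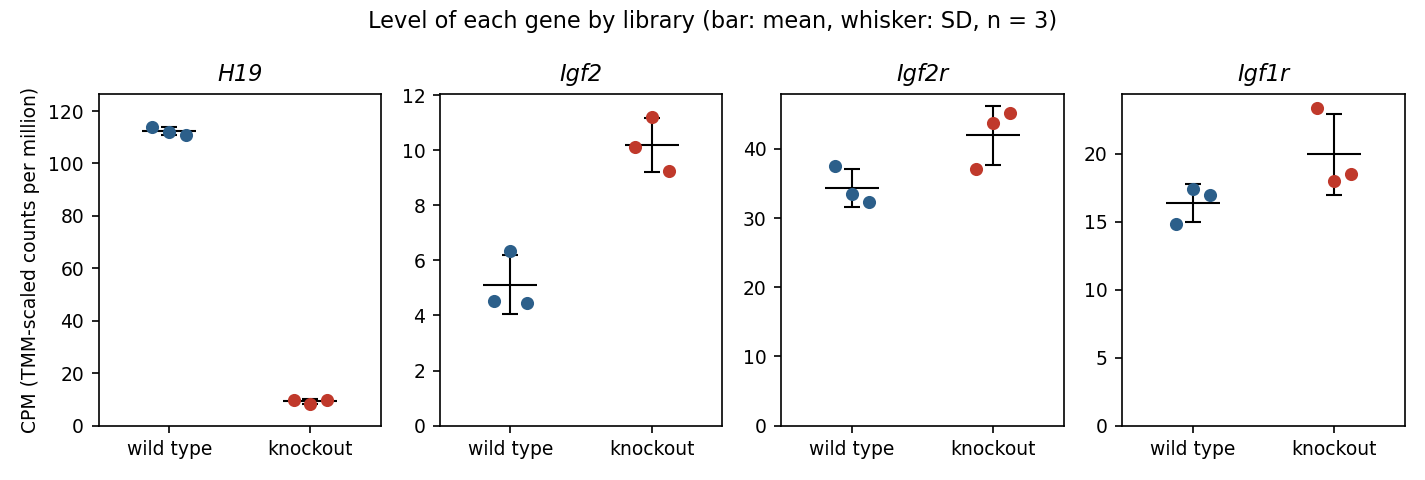
Level of H19, Igf2, Igf2r and Igf1r in CPM (linear axes from 0) by library for wild type (blue) and knockout (red), with mean and SD of 3 libraries. H19 is near 112 CPM in wild type and near 9.26 CPM in the knockout, Igf2 is separated the other way, and the Igf2r groups overlap.

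On the length-scaled level (TPM), the order of the genes differed between the genotypes. In wild type H19 was highest with 67.0, 62.48 and 61.35 TPM, far above the others. Igf2r followed at 3.13 to 3.78 TPM, Igf2 at 2.43 to 3.62 and Igf1r at 1.65 to 2.73, and each neighbouring pair in that order overlapped. In the knockout Igf2 was highest at 6.87 to 7.75 TPM. H19 had 7.18, 5.29 and 4.79 TPM, Igf2r 4.03 to 5.10 and Igf1r 3.47 to 5.12, and every neighbouring pair overlapped. The ratio of H19 to Igf2 in TPM was 20.1, 17.3 and 25.2 in wild type and 0.950, 0.683 and 0.697 in the knockout. In TPM, H19 thus lay above Igf2 in each wild-type library and in 0 knockout libraries. In CPM the knockout order was mixed. H19 had 9.76, 8.32 and 9.7 CPM there and Igf2 10.1, 11.2 and 9.24 CPM, so H19 was slightly higher in knockout replicate 3. The TPM ratio also depends on the length estimates given below.

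**Figure D2:**
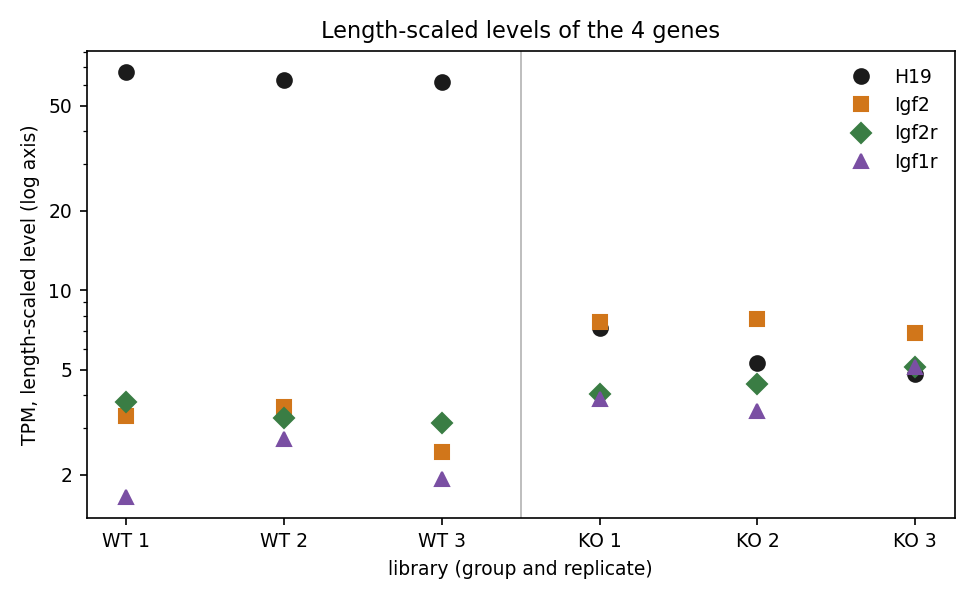
TPM (log axis) of H19, Igf2, Igf2r and Igf1r in each of the 3 wild-type (WT) and 3 knockout (KO) libraries, 1 point per gene and library. H19 lies above 61 TPM in wild type and within the range of the other genes in the knockout, where Igf2 is on top.

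The files also give a length per gene and library, which varies between libraries as a mean weighted by the estimated share of each transcript would. The length itself was not used in choosing the genes. TPM, which was compared in that choice, divides by it, so the tests on length are not independent of the choice. GENCODE M21 lists 7 H19, 9 Igf2, 6 Igf1r and 3 Igf2r transcripts. For Igf1r they run from 733 nt to the 11409 nt coding transcript, and the short ones are retained introns. The Igf1r length was 8061, 5613 and 7617 nt in wild type and 5866, 4703 and 3702 nt in the knockout. Knockout replicate 1 lay above wild-type replicate 2, so the groups overlapped, and the difference of -2340 nt did not pass (two-sided exact permutation test p = 0.2, adjusted over 3 genes 0.6). With 3 libraries against 3 the smallest possible p is 0.1. For Igf2 the length was 1561 ± 194 nt in wild type and 1426 ± 33 nt in the knockout (exact permutation p = 0.4, adjusted 0.6). That difference of -135 nt was -246 nt without wild-type replicate 1 and -65.2 nt without wild-type replicate 3. For H19 it was 1663 ± 21 and 1697 ± 384 nt (exact permutation p = 1), and it turned to -187 nt without knockout replicate 3. Igf2r was assigned 8887 nt, its coding transcript, in every library.

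TPM divides by this length, so Igf1r differed more in TPM than in CPM. In TPM it had 1.65, 2.73 and 1.93 in wild type and 3.88, 3.47 and 5.12 in the knockout, 1.98-fold higher, while the same comparison in CPM gave 1.21-fold. For H19, Igf2 and Igf2r the TPM values gave 11.1-fold lower, 2.36-fold higher and 1.33-fold higher levels. The Igf2r groups, which overlapped in CPM, did not overlap in TPM, although the Igf2r length was 8887 nt in every library. The median log2 fold change of all tested genes was 0.10 on log2(TPM + 1), against 0.02 in counts. What moved Igf2r between the scales was not tested.

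**Figure D3:**
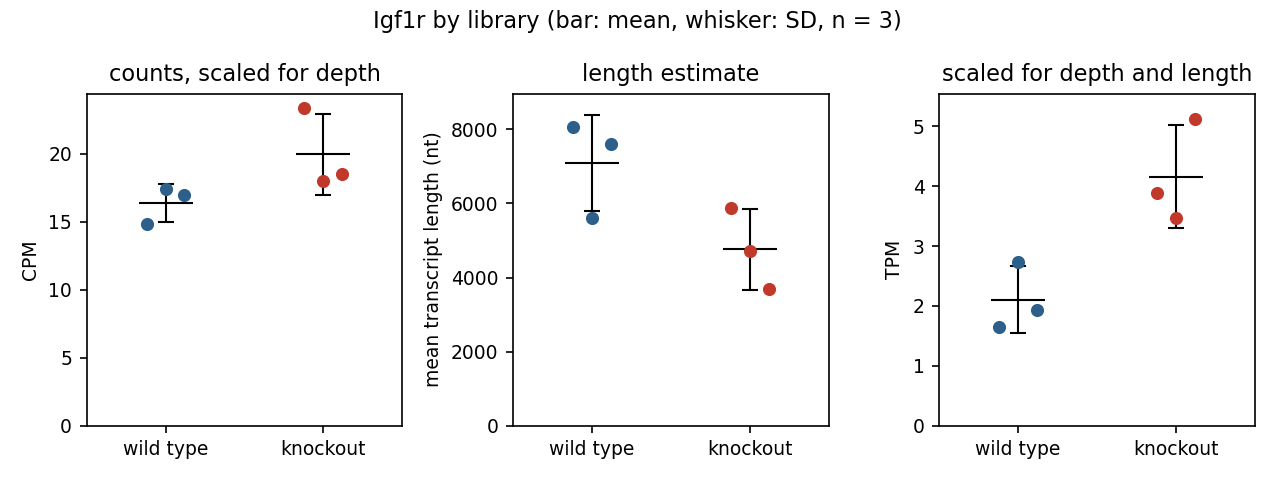
Igf1r by library on 3 scales from 0: CPM, mean transcript length in nt and TPM, with mean and SD of 3 libraries per group. The length estimate is 7097 nt in wild type and 4757 nt in the knockout, and the groups are farther apart in TPM than in CPM.

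The genes around H19 were measured to describe levels along the chromosome. Of 23 neighbours listed, from Dusp8 and Ctsd on one side to Nap1l4 on the other, 10 passed the filter on low counts, 0 rose and 3 fell. Over all tested genes 12.1% rose and 14.4% fell (adjusted p below 0.05 by the Benjamini-Hochberg method in edgeR's quasi-likelihood fit). The genes that fell were Ctsd, a lysosomal protease (log2 fold change -0.23, adjusted p = 0.000128), Phlda2, an imprinted regulator of placental growth (-0.77, 0.00127), and Ascl2, an imprinted trophoblast transcription factor (-0.60, 0.0117). Ctsd, Phlda2 and Ascl2 start at -190.1, 925 and 391.1 kb from the H19 start. Whether their falls belong with the H19 difference was not tested. Phlda2 changed from 13.0 ± 1.60 to 7.63 ± 1.62 CPM, in groups that did not overlap. The median over the 10 genes was -0.37, against 0.02 for all tested genes. The imprinted CDK inhibitor gene Cdkn1c had 18, 15 and 13 counts in wild type and 9, 6 and 10 in the knockout (-0.90, adjusted p = 0.0972). Kcnq1ot1, the antisense RNA of the adjoining imprinted domain, was at -0.02 (adjusted p = 0.956). Cd81, Tssc4, Slc22a18 and Nap1l4 were not called, with log2 fold changes of -0.07, -0.23, -0.51 and 0.02.

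Mrpl23, a mitochondrial ribosomal protein gene that starts 45.5 kb from H19, varied within the groups. It had 50.3, 84.9 and 54.0 CPM in wild type and 1.12, 30.8 and 23.9 CPM in the knockout. All knockout libraries lay below wild type, but the spread left it uncalled (log2 fold change -1.80, SE 0.77, adjusted p = 0.185). Ascl2 lost its call with DESeq2, with limma on TPM and when knockout library 3 or wild-type library 2 was omitted (adjusted p up to 0.0970). Ctsd lost it with limma on TPM (adjusted p up to 0.0916).

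Around Igf2r, 8 of 15 listed neighbours passed the filter, of which 1 rose and 3 fell, where 12.1% of all tested genes rose and 14.4% fell. Map3k4, a kinase of stress signalling, rose (log2 fold change 0.43, adjusted p = 6.28e-05), with 41.3 ± 0.524 CPM in wild type and 55.5 ± 1.02 in the knockout. Sod2, which encodes mitochondrial superoxide dismutase, fell (-0.27, adjusted p = 6.74e-05), as did the mitochondrial ribosomal gene Mrpl18 (-0.23, 0.00325) and the thiolase gene Acat2 (-0.18, 0.00463). The median of these 8 genes was -0.05, against 0.02. The falls were not called with limma on TPM (adjusted p up to 0.449, 0.318 and 0.612), where that setting called 1 neighbour in all. Over all 12891 genes it called 1107 higher and 749 lower on log2(TPM + 1). Mrpl18 was also not called when wild-type library 2 was omitted, nor Acat2 when knockout library 1 was omitted. The placental transporters Slc22a2 and Slc22a3, imprinted with Igf2r in placenta, had at most 2 counts in any library. Tcp1, Pnldc1, Wtap and Agpat4 were not called, at -0.09, 0.00, 0.15 and 0.22.

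**Figure D4:**
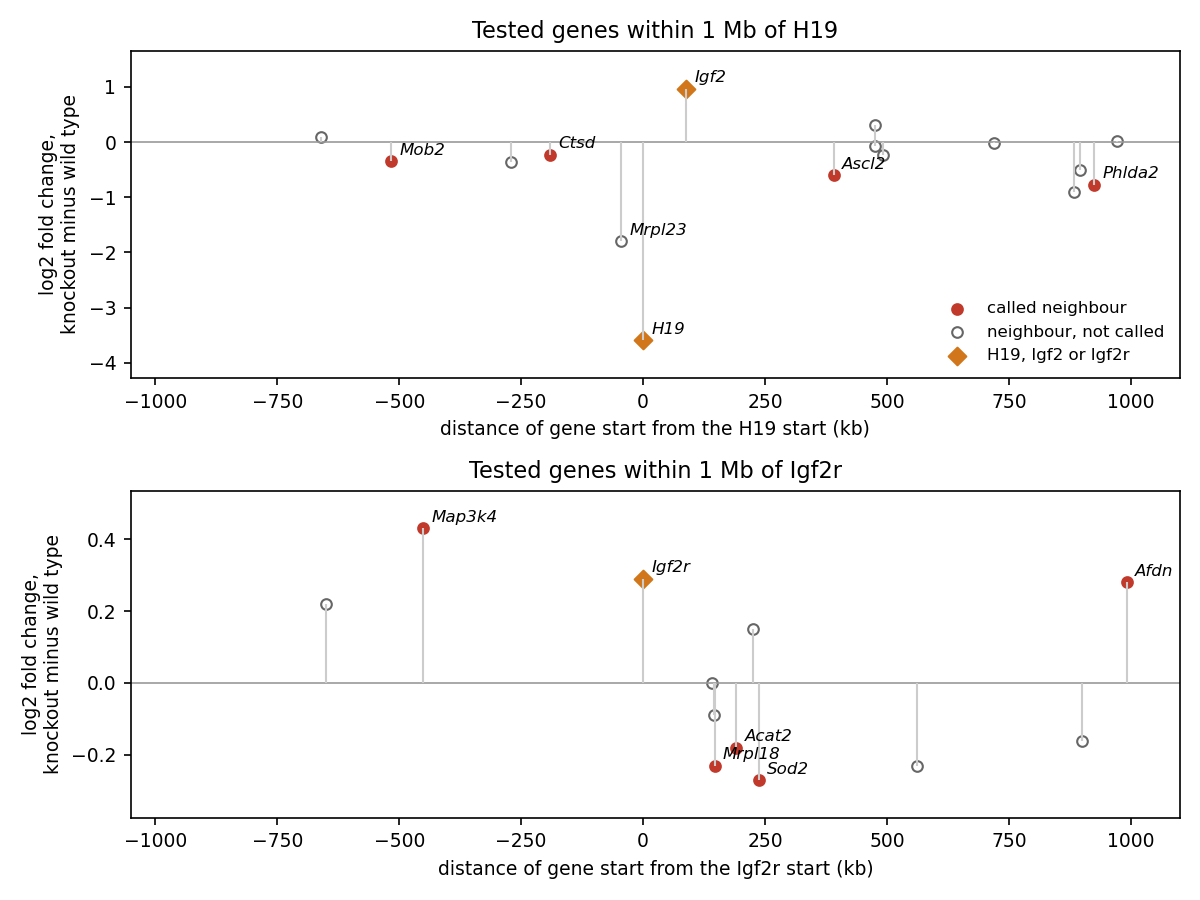
Log2 fold change (knockout minus wild type) of tested genes within 1 Mb of the start of H19 (upper panel) and Igf2r (lower panel) against distance in kb, with filled red points for called neighbours and diamonds for H19, Igf2 and Igf2r. H19 at -3.59 and Igf2 at 0.97 lie 88.7 kb apart and differ in opposite directions, and 4 of the 14 other genes near H19 are called, all lower.

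The rest of the IGF system was described from lists of pathway genes. Of 22 listed ligands, receptors, binding proteins and RNA-binding proteins, 11 were tested, 1 rose and 3 fell, 36.4% called against 26.5% of all tested genes. The median was -0.04, against 0.02. The insulin receptor gene Insr, whose product also binds Igf2, rose. It had 7.51, 11.1 and 6.88 CPM in wild type and 17.8, 13.6 and 17.1 CPM in the knockout, with no overlap (log2 fold change 0.93, SE 0.17, adjusted p = 8.40e-05). Insr lies on chromosome 8, where the median of 703 tested genes was 0.17. Its call was lost with limma on TPM (adjusted p up to 0.208). Htra1, a secreted protease that cleaves IGF binding proteins, fell from 15.2 ± 0.880 to 8.38 ± 1.54 CPM (-0.84, adjusted p = 0.000150).

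The Igf2bp proteins bind Igf2 and H19 RNA. Igf2bp2 fell (-0.34, adjusted p = 8.31e-05) and Igf2bp1 fell slightly (-0.14, 0.0160), while Igf2bp3 was at 0.27 (0.0771). Igf2bp1 lies on chromosome 11, where the median was -0.12, and its call was lost with limma on TPM or when knockout library 3 or wild-type library 1 was omitted (adjusted p up to 0.171). Igf2bp2 also lost it with limma on TPM (up to 0.197). Among the binding proteins that hold IGFs outside the cell, Igfbp2 was by far the most abundant. It had 1090 ± 17.2 CPM in wild type and 1070 ± 17.5 in the knockout (-0.02, SE 0.04, adjusted p = 0.723). Igfbp4 was at -0.06 and Igfbp3 at -0.56 (adjusted p = 0.529 and 0.138). The other ligands were at the detection limit: Igf1 had 0 to 2 counts per library and Ins1 and Ins2 had 0. Igf2 was therefore the only ligand of these 4 with more than 3 counts in any library.

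Of 49 tested genes that carry the signal from the receptors to PI3K, Akt, mTOR and Ras, 5 rose and 3 fell, 16.3% called against 26.5% of all genes. The median was 0.08. Hras, which encodes a Ras protein, had 98.9 ± 6.14 CPM in wild type and 73.4 ± 0.916 in the knockout, a fall (log2 fold change -0.43, adjusted p = 2.21e-06). The lipid phosphatase gene Inppl1 rose (0.24, 0.00427), and Grb10, an imprinted adaptor that restrains the receptors, fell (-0.74, 0.00951). Grb10 lies on chromosome 11. Akt1, Akt2, Mtor and Tsc2 were not called, at -0.08, -0.04, -0.01 and 0.01. Without genes of chromosomes 6, 8 and 11, 3 rose and 1 fell among 38, where 2534 of 10504 genes were called. DESeq2 called 3 of the 49, against 1988 of 12891 genes. Grb10 lost its call with DESeq2 and limma on TPM (adjusted p up to 0.127) and when wild-type library 3 was omitted, and Inppl1 with DESeq2 (0.0523). Without knockout replicate 2 the list had 5 calls, where 3210 of 13211 genes were called.

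FoxO transcription factors enter the nucleus when Akt, which acts downstream of the receptors, is less active. Their known target genes were listed for that reason, with earlier results of these data known. Whether their levels follow the receptors here was not tested. Of 19 tested targets 9 rose and 2 fell, 57.9% called against 26.5% of all tested genes (12.1% higher, 14.4% lower). The median was 0.35, against 0.02 for all tested genes. Txnip, a regulator of glucose uptake, had 191 ± 1.98 CPM in wild type and 373 ± 5.17 in the knockout (log2 fold change 0.96, adjusted p = 1.14e-17). The CDK inhibitor gene Cdkn1b changed from 12.8 ± 2.41 to 25.3 ± 3.87 CPM (1.00, 1.70e-06) and the coactivator gene Cited2 from 18.5 ± 0.594 to 30.4 ± 2.24 CPM (0.71, 6.96e-06). Cdkn1b lies on chromosome 6, where the median of 600 tested genes was 0.16. Insr, named above, is also a FoxO target. Catalase, Cat, rose (0.36, adjusted p = 0.000344) and Sod2 fell, although both encode antioxidant enzymes. The targets Irs2, Bcl2l11 and Pik3ip1 were not called, at -0.02, 0.06 and -0.06. Foxo1, Foxo3 and Foxo4 themselves were at 0.14, 0.13 and -0.11 and were not called. Of the 12 targets outside chromosomes 6, 8 and 11, 5 rose and 1 fell. The fit without those chromosomes called 1106 of 10504 genes higher and 1428 lower. Limma on TPM called 6 rises and 0 falls among the 19. Over all 12891 genes it called 1107 higher and 749 lower on log2(TPM + 1), and 1086 and 738 on log2(TPM + 0.1). That scale thus had more rises than falls, where counts had more falls. FoxO genes have other inputs, and the activity of Akt was not measured.

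**Figure D5:**
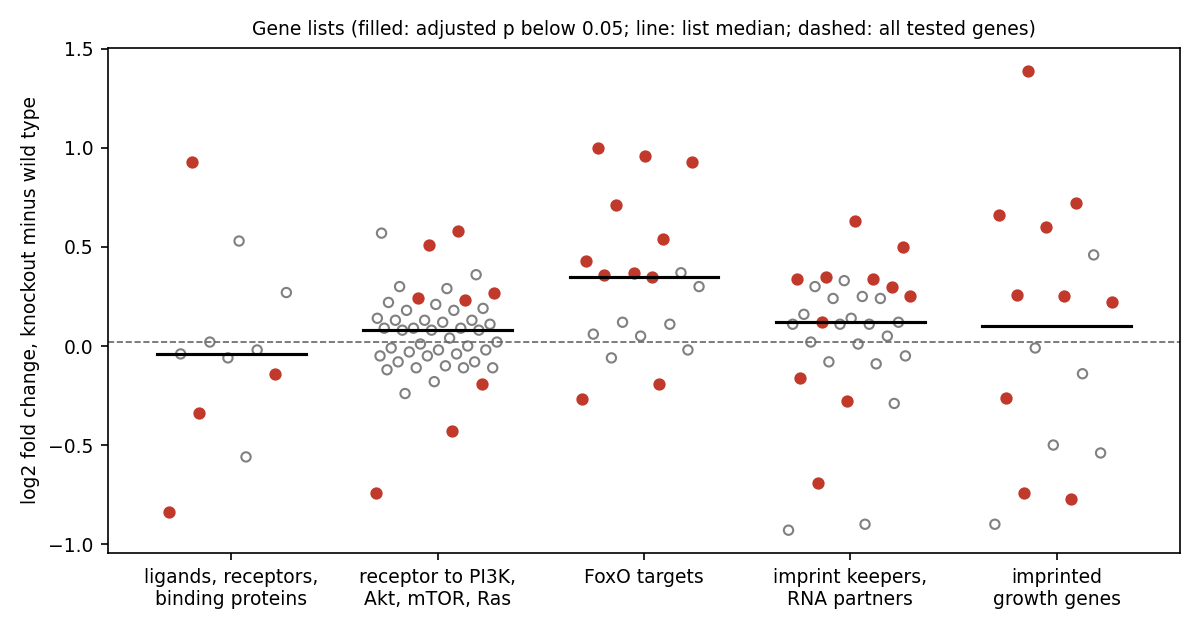
Log2 fold change (knockout minus wild type) of each tested gene of 5 gene lists, with filled points for genes with an adjusted p below 0.05, a line at the list median and a dashed line at the median of all tested genes, 0.02. The FoxO targets have the highest median, 0.35, and most receptor signalling genes lie near the dashed line.

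Genes for proteins that keep imprints or bind these RNAs were described next. The list of 31 tested genes also holds Cdkn1c, a growth gene that does neither and was not called. Of the 31, 8 rose and 3 fell, 35.5% called against 26.5% of all tested genes (12.1% higher, 14.4% lower), with a median of 0.12 against 0.02. Without knockout replicate 2, 7 rose and 4 fell, against 1423 and 1787 of 13211 genes. CTCF, which binds the H19 control region, was not called (Ctcf 53.3 ± 2.58 and 57.9 ± 4.48 CPM, log2 fold change 0.12, adjusted p = 0.252). Trim28, the corepressor that protects methylated imprints, fell from 1470 ± 19.7 to 1210 ± 5.81 CPM (-0.28, adjusted p = 5.36e-06). Its DNA-binding partner Zfp57 rose slightly (0.12, 0.0465), as did Zfp445 (0.34, 0.0211). The maintenance methylase gene Dnmt1 rose (0.25, adjusted p = 0.00171) and the de novo methylase gene Dnmt3b fell (-0.69, 8.13e-06). Tet1, which encodes an enzyme that oxidises methylcytosine, rose (0.35, 0.000544). The cohesin genes Smc1a and Smc3, whose complex stops at CTCF sites, rose (0.34, 7.95e-06 and 0.30, 0.000726). Dnmt1, Tet1 and Smc3 lost their calls with limma on TPM (adjusted p up to 0.0721, 0.167 and 0.0627), where 4 or 5 of the 31 were called. Over all 12891 genes limma on TPM called 1824 or 1856. Zfp57 and Zfp445 were named for their role after their values were seen, as were the uncalled genes named in these lists.

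Other cell types in a culture could carry H19 and Igf2, so their markers were summed. Of 12 fibroblast markers 7 had 0 counts in all 6 libraries, among them Col3a1, Dcn, Lum and Postn. The sum of all 12 ran from 21.3 to 26.5 CPM in wild type and from 13.6 to 18.5 CPM in the knockout, mainly from Col5a1, Pdgfrb and Thy1, and Thy1 fell (-0.97, adjusted p = 0.00859). Trophectoderm markers summed to 128 to 142 CPM in wild type and 111 to 131 CPM in the knockout, with Tfap2c, Krt8 and Krt18 highest. Cdx2, the defining factor of that lineage, had 4 to 6 counts per library. Primitive endoderm markers summed to 3.91 to 6.99 CPM in wild type and 7 to 12.2 CPM in the knockout, where Gata4 was called higher (1.10, adjusted p = 0.0247) although its groups overlapped, and Sox7 had 0 counts. The part of fibroblasts, trophectoderm and endoderm in the levels of H19 and Igf2 was not tested. In bulk RNA, fewer cells with the transcript and less transcript per cell cannot be told apart.

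The genes most like H19 over the 6 libraries were sought by the root-mean-square distance of log2 CPM, each profile taken less its wild-type mean, among 12890 other genes. The nearest were Rpl39l (distance 0.56, log2 fold change -2.84), Gm21293 (0.64, -3.34), Zscan4f (0.65, -3.88), Zscan4c (0.66, -3.33) and Zscan4-ps2 (0.77, -3.03). Zscan4 genes mark the 2-cell-like state. Near-identical copies make each single Zscan4 value uncertain. In the knockout, Gm21293 and these Zscan4 genes had means of 0.665 to 0.815 CPM, close to the floor of 3 counts, so their fold changes and distances are imprecise. None of the 5 is as abundant in wild type as H19, since their means were 6.48 to 57.9 CPM. The nearest to Igf2 were Dcun1d2 (0.09), Poc1b (0.11) and Sh3bgrl (0.11), with log2 fold changes of 0.95, 0.85 and 0.81. Igf2 ranked 127 from the highest fold change among the tested genes. These distances are descriptions over 6 libraries in 2 groups.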

How the data were processed

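The files hold 1 library each. Expected counts, as deposited, are the authors' estimates of reads per gene, without depth scaling. TPM and FPKM were deposited by the authors, scaled for length and library per the file headers; FPKM was not used. The length column, in nucleotides, is named so per the file headers and varies between libraries, so it was read as an abundance-weighted mean. Bowtie 0.12.2 is listed, per the submitters' processing notes, which also give mm8 and mm10 as builds and no role for either. For quantifier, annotation and strand setting nothing is given in the sources used here. All 55450 identifiers matched GENCODE M21 (GRCm38), the source of symbols and coordinates.

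Expected counts were rounded. In R 4.3.3, edgeR 4.0.16 was run on all genes with TMM, filterByExpr and the quasi-likelihood test on the group; 12891 genes passed, adjusted by Benjamini-Hochberg and called below 0.05. The SE given with a log2 fold change is its absolute value divided by the square root of the quasi-likelihood F statistic. It is not a standard error of the coefficient estimated apart from that test. Genes outside the filter are given as counts. Alternatives were RLE scaling, DESeq2 1.42.0, no filter, 1 CPM in 3 libraries, a replicate block, each library left out, the 20 most abundant genes removed, and limma 3.58.1 on log2 TPM with a pseudocount of 1 or 0.1. Removal of the genes of chromosomes 6, 8 and 11 was added after seeing the data.

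The 4 genes and all lists were chosen with earlier results of these data known. Named from each list were up to 6 called genes of at least 1 CPM by p-value, tested neighbours, marker genes with the highest levels and the genes nearest in profile. Some genes that this rule names are not reported here. The lists overlap: Insr, Sod2, Cdkn1c, Grb10, Phlda2 and Ascl2 are in more than 1. On simulated counts of the knockout and wild-type comparison (12711 genes), 67.3% of genes changed 1.5-fold, 90% of those changed 2-fold and 100% of those changed 4-fold were called, with 9 false calls of 150. The simulation also held genes changed by less than 1.5-fold, whose share is not given here. Called genes named above, such as Trim28 and Dnmt1, lie below 1.5-fold. Only 199 genes were changed in the simulation, while 26.5% of the tested genes were called in the data.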

Additional observations from a re-analysis of the deposited data

How the results depend on the processing

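The direction of the log2 fold changes of H19, Igf2, Igf2r and Igf1r was kept under every alternative run. On log2(TPM + 1) the value was -3.27 for H19 and 0.73 for Igf1r, and on log2(TPM + 0.1) it was -3.46 for H19, 1.23 for Igf2 and 0.96 for Igf1r. The median of all genes was 0.10 and 0.11 on those scales, against 0.02 in counts. For Igf1r the length estimate entered TPM; other causes were not tested. With 1 library left out, H19 ran from -3.63 to -3.53, Igf2 from 0.88 to 1.17, Igf2r from 0.23 to 0.37 and Igf1r from 0.15 to 0.35.

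Over all genes 3420 were called (1559 higher, 1861 lower), 1988 by DESeq2 (701 and 1287), 1856 on log2(TPM + 1) (1107 and 749), 1824 on log2(TPM + 0.1) (1086 and 738), and 2615 to 3210 with 1 library left out. On log2(TPM + 1) and log2(TPM + 0.1), ligands and receptors had 1 and 1 call of 4, FoxO targets 6 and 6 of 11, Igf2r neighbours 1 and 1 of 4, and imprint keepers 5 and 4 of 11. H19 neighbours had 1 call of 3 on log2(TPM + 0.1), and receptor signalling 3 calls of 8 by DESeq2. Without genes of chromosomes 6, 8 and 11, chosen after seeing the data, ligands and receptors had 2 calls, receptor signalling 4 and FoxO targets 6, as fewer genes were tested. With 1 library left out, receptor signalling had 5 to 8 calls. The H19 length difference of 33.6 nt ran from -187 to 166 nt, the Igf2 one from -246 to -65.2 nt and the Igf1r one from -3080 to -1810 nt. The cause of the other changes was not tested.

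Replicate numbers did not pair the libraries: same-numbered libraries had correlated deviations of 0, 0.04 and 0.02. With a replicate block 3353 genes were called and the fold changes were -3.59 for H19, 0.99 for Igf2, 0.29 for Igf2r and 0.28 for Igf1r. Of 652 values of 44 genes of the naming rule under an alternative, 609 kept their side of the threshold, 42 lost it, 1 gained it and 0 reversed. Depth limits Igf1, Airn and Igf2os, which had at most 8 counts.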

Other observations

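A list of imprinted genes linked to growth held 16 tested genes, of which 7 rose and 3 fell, 62.5% called against 26.5% of all tested genes (12.1% higher, 14.4% lower). The median log2 fold change was 0.10, against 0.02, and no test of the list was run. Phlda2 and Cdkn1c are H19 neighbours and Grb10 a receptor adaptor already counted above, so the list is not independent of those. DESeq2 called 6 higher and 1 lower, and without knockout replicate 2 the counts were 6 and 3. Over all genes those 2 fits called 701 higher and 1287 lower, and 1423 and 1787. The maternally expressed RNA Meg3 rose from 175 ± 5.50 to 277 ± 13.2 CPM (SD, n = 3; 0.66, edgeR adjusted p = 4.57e-13). The paternally expressed Mest rose from 54.1 ± 4.68 to 82.2 ± 3.26 CPM (0.60, adjusted p = 5.85e-08), and Sgce from 5.29 ± 1.35 to 13.9 ± 1.57 CPM (1.39, adjusted p = 9.44e-07). The transporter gene Slc38a4 (0.26), Gnas (0.22), which encodes a G protein subunit, and Ndn (0.72) also rose, with adjusted p of 8.45e-05, 0.000398 and 0.00104. The falls were Phlda2 (-0.77, adjusted p = 0.00127), Grb10 (-0.74, 0.00951), which was not called by DESeq2, and Plagl1 (-0.26, 0.0123), which encodes a zinc finger transcription factor. Impact was the other rise (0.25, 0.0170). Mest and Sgce lie on chromosome 6, where the median of tested genes was 0.16. Outside chromosomes 6, 8 and 11, 5 rose and 2 fell among 12. The fit without those chromosomes called 1106 of 10504 genes higher and 1428 lower.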
